A study of Mus musculus with 2 samples.

Results

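The genes described here are the long noncoding RNA Gm42031 and the gene copies Tmem254a, Tmem254b and Tmem254c, 4 of the 54532 genes of a mouse RNA sequencing table. They were picked by name because Gm42031 and Tmem254c stood far lower in one library than in the other, so their levels and ratios are given as a description, with no test. The table holds 1 WT-labelled (wild type) and 1 KO-labelled library, the second from a knockout of Trappc9, which encodes a subunit of the TRAPP vesicle tethering complexes. Both carry the tissue label adipose, with abdominal fat pads taken at 3 to 4 weeks of age and 3 mice collected per genotype. Whether those mice were pooled into the 1 library, how the knockout was made, the strain of each group and the sex of the mice are not stated in the sources used here. The titles name stem cells derived from adipose tissue, the design text describes a collagenase digest, and the extraction label describes frozen pads. All values are levels in FPKM (fragments per kilobase of gene, scaled to a library size), with the fragments behind them recovered from the step size of the values. With 1 library per genotype, no difference has a replicate check, and every interval covers counting error only.

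Tmem254 genes encode a small protein with predicted membrane-spanning segments whose function is little described. In the mouse reference genome the gene is present in several copies, in a stretch of chromosome 14 that also holds copies of the homeobox gene families Cphx and Duxbl and of Plac9, which encodes a small secreted protein. Long intergenic noncoding RNAs such as Gm42031 are transcripts without a known protein product, and many contain sequence that is repeated elsewhere in the genome. Reads from repeated genes cannot always be placed on 1 copy, so the level printed for a single copy depends on how the alignment and counting programs shared them out.

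The positions are those of the table, on the mm10 mouse assembly. Gm42031 (ENSMUSG00000110386) spanned chromosome 8, 85125872 to 85132289, on the minus strand, with 2 exons and an exonic length of 1885 bases. Tmem254a (ENSMUSG00000072676; 25923300 to 25927672), Tmem254c (ENSMUSG00000072680; 26063919 to 26067355) and Tmem254b (ENSMUSG00000021867; 26203369 to 26207041) followed each other in this order on chromosome 14, all on the minus strand. Measured at the second exon, Tmem254c lay 139.753 kb after Tmem254a, and Tmem254b lay 139.616 kb after Tmem254c. The exonic lengths in the table were 2569, 1582 and 1869 bases for Tmem254a, Tmem254c and Tmem254b, and each equalled the union of the exons in GENCODE M21, as did that of Gm42031. No other gene of the table overlapped Gm42031, Tmem254a or Tmem254c on either strand. Tmem254b lay inside the span of Cphx3, on the opposite strand, which had 0 fragments in both libraries.

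The sequence at the start of the 3 copies is shown because it was the same in each although their listed levels were not. GENCODE gives 2 alternative first exons per copy. RefSeq (GRCm38.p6) has 2 starts per copy, each with a window of 300 bases, from 250 bases before to 50 bases after. The windows printed run 5′ to 3′ on the minus strand, chr14:26067376-26067675 for the upstream start of Tmem254c, chr14:26206976-26207275 for that of Tmem254b and chr14:26066943-26067242 for the downstream start of Tmem254c. Capitals mark the 50 bases from the RefSeq start onwards. A RefSeq start need not be that of the gene in the table. The upstream window of Tmem254c lies wholly before that gene, whose first base on the minus strand is 26067355, so its capitals are outside the counted exons.

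Tmem254c upstream start: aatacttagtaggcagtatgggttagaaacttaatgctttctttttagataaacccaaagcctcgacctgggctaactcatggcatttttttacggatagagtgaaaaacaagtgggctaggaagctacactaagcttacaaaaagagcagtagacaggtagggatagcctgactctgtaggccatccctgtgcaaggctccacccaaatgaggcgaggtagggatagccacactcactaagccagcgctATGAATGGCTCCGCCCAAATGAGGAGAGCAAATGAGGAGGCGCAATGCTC
Tmem254b upstream start: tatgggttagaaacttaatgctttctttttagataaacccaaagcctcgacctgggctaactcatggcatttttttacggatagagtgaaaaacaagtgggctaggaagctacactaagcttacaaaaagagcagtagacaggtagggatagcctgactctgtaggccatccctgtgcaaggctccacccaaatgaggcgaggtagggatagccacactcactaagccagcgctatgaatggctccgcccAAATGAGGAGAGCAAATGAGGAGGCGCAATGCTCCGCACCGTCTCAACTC
Tmem254c downstream start: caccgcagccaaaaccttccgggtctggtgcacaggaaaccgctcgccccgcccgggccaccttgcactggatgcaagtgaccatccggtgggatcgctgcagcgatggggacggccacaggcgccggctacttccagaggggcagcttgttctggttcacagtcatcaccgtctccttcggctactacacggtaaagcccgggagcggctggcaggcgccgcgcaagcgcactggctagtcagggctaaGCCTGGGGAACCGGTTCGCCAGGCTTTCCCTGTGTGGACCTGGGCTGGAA

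The upstream window of Tmem254a was identical to that of Tmem254c over all 300 bases. The window of Tmem254b held the same sequence, set off by 16 bases because its RefSeq start lies further downstream, with an exact run of 284 bases in common with Tmem254c. The downstream windows of Tmem254a and Tmem254c shared an exact run of 289 bases, and those of Tmem254b and Tmem254c one of 222 bases. The letters GGGCGG, searched on both strands, occurred in 5 of the 6 Tmem254 windows, against 35.7% of all 32851 windows of the same length. TATAAA occurred in 0 of the 6 and in the window of Gm42031, against 13.6% of all windows. CCAAT occurred in none of these 7, against 37.4%. The 6 Tmem254 windows are shifted views of shared sequence, so they are not separate observations. Nothing is therefore read from their counts against the share of all windows. The window without GGGCGG, the downstream one of Tmem254b, starts 78 bases further along than that of Tmem254c. These are matches of letters and say nothing of binding.

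Gm42031 was at 57.8 FPKM in the WT-labelled library, from 1544 fragments, and at 0.41 FPKM in the KO-labelled library, from 11 fragments. In the WT-labelled library it was number 3 by level among the 5559 long intergenic noncoding RNA genes of the table, and in the KO-labelled library it was number 659. The level was 142-fold higher in the WT-labelled library, with an exact 95% Clopper-Pearson interval of 79.0 to 285 from the fragments. On the log2((KO + 1)/(WT + 1)) scale, with 1 FPKM added to each level, the difference was −5.38. The exact Poisson intervals of the 2 levels were 55.0 to 60.8 FPKM and 0.20 to 0.73 FPKM, for counting error only.

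Tmem254c was at 14.5 FPKM in the WT-labelled library, from 326 fragments, and at 0.75 FPKM in the KO-labelled library, from 17 fragments. The level was 19.4-fold higher in the WT-labelled library (counting interval 11.9 to 33.7), a log2 difference of −3.15. Its sister copies carried almost no fragments in either library. Tmem254b had 1 fragment in the WT-labelled library and 0 in the KO-labelled library, where the lowest level used here, that of 3 fragments, would be 0.11 FPKM and the exact Poisson interval of a count of 0 reached 0.14 FPKM. Tmem254a had 0 fragments in both, with intervals reaching 0.10 FPKM in each. No fold is given for these 2 copies, as both libraries were at or under 3 fragments. Over the 3 copies together the level was 14.6 FPKM from 327 fragments against 0.75 FPKM from 17, 19.4-fold higher in the WT-labelled library (11.9 to 33.8). Tmem254c held 326 of the 327 fragments and all 17, so the sum is nearly its value again and no second result.

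**Figure D1:**
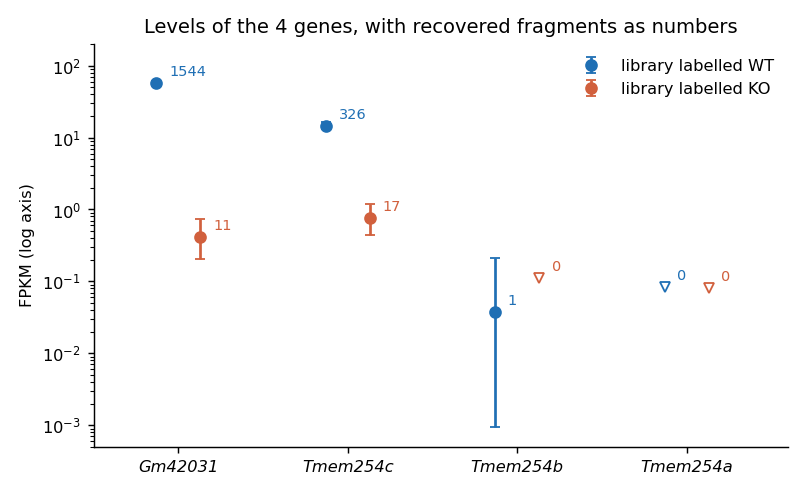
Levels of the 4 genes in FPKM on a log axis, in the WT-labelled library (blue) and the KO-labelled library (orange); filled points carry exact 95% Poisson intervals, open triangles mark the level of 3 fragments where 0 were counted, and the numbers are recovered fragments. Gm42031 and Tmem254c were far lower in the KO-labelled library, whereas Tmem254b and Tmem254a had 1 fragment or none.

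In the annotation Tmem254c has no exonic sequence of its own. Every one of its 1530 distinct runs of 50 exonic bases in GENCODE M21 also occurred in Tmem254a and in Tmem254b, and the same was true of its 1480 runs of 100 bases and its 1430 runs of 150 bases. Both protein-coding transcripts of Tmem254c lay whole inside a transcript of Tmem254a and inside one of Tmem254b. The coding sequences of the copies were identical, with 0 differences over 369 bases for the form with the upstream first exon and 0 over 387 bases for the form with the downstream one. Tmem254b likewise had 0 of 1906 runs of 50 bases to itself. Tmem254a had 700 of 2606 to itself, and no fragment was listed on it. The program that counted the fragments and its treatment of reads with several placements are not stated in the sources used here. The level of a single copy is therefore uncertain. The summed fragments, 327 and 17, do not depend on how the counted fragments were divided among the 3. They can still depend on whether reads with several placements were counted at all. The summed FPKM also depends on the division, through the unequal lengths: with the summed fragments over the mean length the log2 difference was −2.97, in place of −3.15.

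Against the whole table, differences of this size were rare. Among 14131 genes with at least 50 fragments in either library, 5 were at least 10-fold lower in the KO-labelled library (0.0354%) and 10 at least 10-fold lower in the WT-labelled library (0.0708%), with 3 fragments as the lowest level used. The members were chosen on this contrast, so nothing is read from their place among the 5. Beside Gm42031 and Tmem254c, the 5 were Gm42427, Dazl and Gm4316, each with a far lower level than the first 2. Gm42427, a transcript model of uncertain status on chromosome 5, was at 0.77 FPKM in the WT-labelled library (58 fragments) and had 0 fragments in the KO-labelled library, at least 19.5-fold lower against the level of 3 fragments, with a counting interval that begins at 15.4-fold. Dazl, an RNA-binding protein gene of germ cells on chromosome 17, was at 0.96 and 0.055 FPKM (52 and 3 fragments), a ratio of 17.5 with a counting interval of 5.67 to 87.6. Gm4316, a long intergenic noncoding RNA on chromosome 8, was at 1.22 and 0.099 FPKM (61 and 5 fragments), a ratio of 12.3 (5.00 to 39.3).

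Gm4316 was the gene just inside the 10-fold limit, and the gene just outside it was the processed pseudogene Ube2n-ps1, at 34.0 and 4.11 FPKM (221 and 27 fragments), 8.27-fold. By closeness of the ratio over the 2 libraries, the next genes were Pkd1l1, Boll, a germ cell gene related to Dazl, 1700029P11Rik and Kcnj9, a potassium channel gene, with ratios of 7.83 down to 4.54. In the opposite direction, ordered by the ratio with 3 fragments as the lowest level, Ntsr1, a neurotensin receptor gene, came first. It was at 0.036 and 5.91 FPKM (2 and 331 fragments), 109-fold higher in the KO-labelled library against the level of 3 fragments and 164-fold higher as counted, with a counting interval of 45.0 to 1359. It was followed by 4833423E24Rik (0 and 134 fragments, at least 44.2-fold higher against 3 fragments, with a counting interval from 35.5-fold), the cystatin gene Cst12 (126 and 3684 fragments), Gm48697 (2 and 65 fragments) and Atp2b2, a calcium pump gene (5 and 103 fragments). Near-absence thus occurred in both directions.

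**Figure D2:**
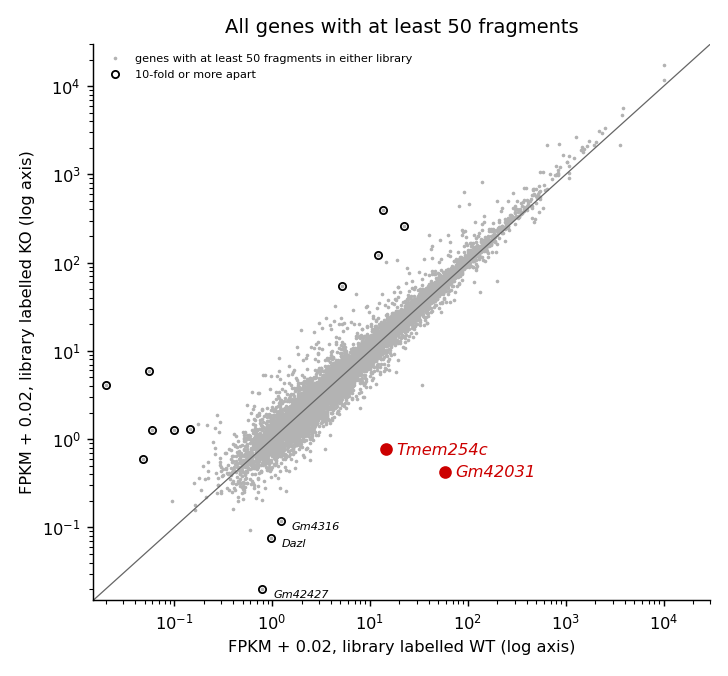
Level of each of 14131 genes in the WT-labelled library (x axis) and the KO-labelled library (y axis), in FPKM with 0.02 added, on log axes; circles mark genes at least 10-fold apart and the line marks equal levels. Tmem254c and Gm42031 lie below the line at higher WT levels than Gm4316, Dazl and Gm42427.

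The Gm42031 transcript shared short runs of sequence with other genes, and fewer of the longer runs. Of its 1328 distinct runs of 50 bases, 544 (41.0%) occurred in no other GENCODE M21 gene on either strand. For runs of 100 and 150 bases the share was 76.9% and 95.03%. Only annotated transcripts were searched, not the genome, and a run present at 2 places within Gm42031 was counted once. These shares therefore do not show how many reads could be placed. The sources used here do not give the read length. Within the transcript, bases 48 to 604 were repeated letter for letter as bases 1329 to 1885, a direct repeat of 557 bases that closes the transcript. Long direct repeats at both ends are, as background, the layout of integrated retroelements with long terminal repeats, and no annotation of repeats was used here. The window of Gm42031 around its RefSeq start shared 50-base runs with those of 2 other genes of the RefSeq table, Gm40843 and Gm43305.

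**Figure D3:**
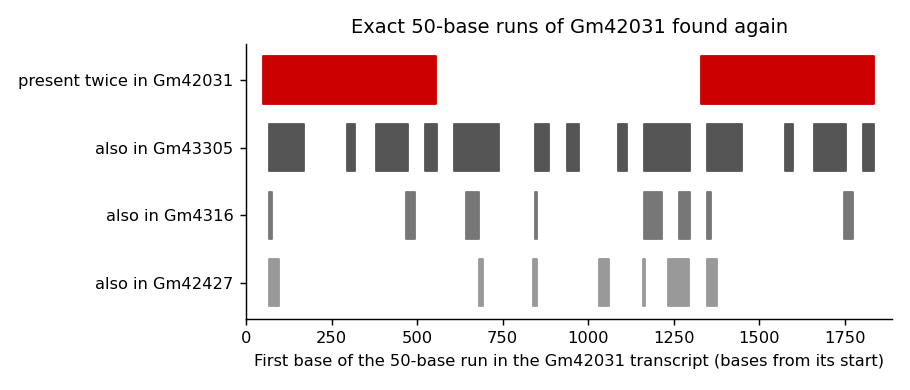
Position along the Gm42031 transcript, in bases from its start, of the first base of each exact 50-base run that is present at a second place in Gm42031 (top) or on the same strand in Gm43305, Gm4316 and Gm42427 (lower 3 tracks). The direct repeat of 557 bases takes up both ends, and Gm43305 shares the most runs of the 3 genes.

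Both of the noncoding genes that accompanied Gm42031 among the 5 also shared sequence with it. Gm4316 had 164 of its 50-base runs in common with Gm42031, Gm42427 had 153, and Gm4316 and Gm42427 had 244 in common with each other, all on the same strand. They are not neighbours: Gm4316 (123165255 to 123178765) lies 38.0 Mb from Gm42031 on chromosome 8, and Gm42427 is on chromosome 5. Of runs of 100 bases, Gm42031 shared 3 with Gm4316 and 13 with Gm42427. Whether the 3 genes were counted from the same reads was not tested.

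In all, 16 other genes shared a 50-base run with Gm42031, of which 14 were in the table and 11 had at least 50 fragments in either library. Of these 11, 7 were lower in the KO-labelled library with a counting interval that left out no change, 2 were higher, and 2 had intervals that included it. Over all 14131 genes with at least 50 fragments, 17.8% were lower and 24.9% higher in this sense. The split depended on the scaling: once levels were rescaled to TPM, so that each library sums to the same total, 9 of the 11 were lower and 1 higher, against 47.7% and 8.35% of all genes. The 7 were Gm43305, Cnbd2, Gm4316, Gm42427, Cep85, AI506816 and Gm37416. The sharing with Cnbd2 and Cep85, as with Miga1 and Apobec3, was on the opposite strand, and the sources used here do not say whether the counting used strand.

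Gm43305, a noncoding transcript on chromosome 14, held most of the fragments. It shared 625 runs with Gm42031, 47.1% of that gene's runs, and was at 471 FPKM in the WT-labelled library (33467 fragments) and 286 FPKM in the KO-labelled library (20496 fragments), a ratio of 1.65 (counting interval 1.62 to 1.68). It lies 28.1 Mb from the Tmem254 copies. Gm37416, a short model of 318 bases on chromosome 2, was at 200 and 62.4 FPKM (901 and 284 fragments), a ratio of 3.20 (2.80 to 3.67), and shared 14 runs. Cnbd2, a gene with a cyclic nucleotide-binding domain, had 362 and 161 fragments, 2.27-fold.

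The remaining sharers were closer to equal levels. Cep85, a centrosomal protein gene, was at 73.0 and 46.9 FPKM, 1.56-fold, and AI506816 had 825 and 516 fragments, 1.61-fold. Miga1, a mitochondrial fusion gene, was at 8.91 and 8.98 FPKM, and Apobec3, which encodes a cytidine deaminase that restricts retroviruses, at 13.7 and 13.5 FPKM. Chd9, a chromatin remodeller gene, was higher in the KO-labelled library, at 8.59 and 11.3 FPKM, as was Gm10524, at 3.95 and 5.43 FPKM. As deposited, the sharers thus lay on either side of no change. Gm4316 and Gm42427 apart, the ratio of WT over KO was 0.73 to 3.20 in the 9 sharers with at least 50 fragments. Gm26880, which shared 339 runs on the opposite strand, fell under that limit with 41 and 11 fragments, a ratio of 3.76. Gm42031 was picked for its 142-fold difference, so nothing is read from its place beside these genes.

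**Figure D4:**
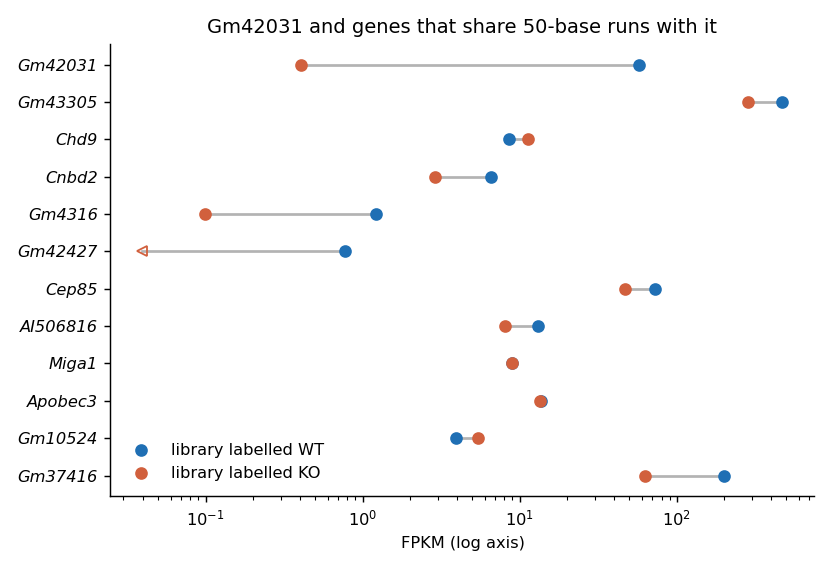
Levels in FPKM (log axis) of Gm42031 and the 11 genes that share a 50-base run with it and have at least 50 fragments, in the WT-labelled library (blue) and the KO-labelled library (orange), ordered by the number of shared runs; the open triangle marks the level of 3 fragments for Gm42427, which had 0. The gap is widest for Gm42031, Gm42427 and Gm4316.

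No neighbour of Gm42031 differed by as much. Within 500 kb of it the table had 58 genes, of which 36 had a mean of at least 1 FPKM. None of these 36 reached a 2-fold difference, an absolute log2 ratio of 1 on the scale with 1 FPKM added, against 2.8% of all 15447 genes at or above 1 FPKM on average (1.79% higher and 1.01% lower in the KO-labelled library). A count of 0 among 36 is near that share, so nothing is read from it. The median log2 ratio of the 36 was 0.05, beside 0.02 for all genes, with a range of −0.37 to 0.57. This median turned negative when levels were rescaled to TPM. The lowest was Zfp791, a zinc finger gene and the nearest gene, which lies on the same strand, 2.78 kb downstream of Gm42031. It was at 4.10 and 2.94 FPKM (171 and 124 fragments), 1.39-fold higher in the WT-labelled library (counting interval 1.10 to 1.77).

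On the same side followed Man2b1, a lysosomal mannosidase gene, at 36.3 and 37.9 FPKM, Wdr83os at 30.3 and 34.8 FPKM, Wdr83 at 8.64 and 9.08 FPKM and Dhps, which encodes deoxyhypusine synthase, at 7.41 and 9.96 FPKM. On the other side, where the nearest measured gene lay 128 kb away, Vps35, a subunit of the retromer, was at 17.2 and 18.9 FPKM. After it came Orc6, of the origin recognition complex, at 7.61 and 7.45 FPKM, 4921524J17Rik at 9.46 and 8.99 FPKM, the transaminase gene Gpt2 at 19.5 and 18.7 FPKM and the chaperone gene Dnaja2 at 46.6 and 46.9 FPKM. Of these 10 genes, Zfp791 had a log2 ratio of −0.37 and the other 9 lay between −0.07 and 0.38.

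The window of 500 kb on either side of the Tmem254 copies held 46 other genes, 11 of them with a mean of at least 1 FPKM. None of the 11 reached 2-fold, against 2.8% of all 15447 genes. A count of 0 among 11 is near that share, so nothing is read from it. The median log2 ratio of the 11 was 0.11, with a range of −0.61 to 0.28, and it too turned negative in TPM. The lowest, Gm47921, rested on 7 and 3 fragments. Anxa11, an annexin gene 36.5 kb before Tmem254a, had 327 and 414 fragments, 1.25-fold higher in the KO-labelled library (1.08 to 1.45). Before it lay Zcchc24 at 10.3 and 9.34 FPKM, Ppif, the mitochondrial cyclophilin gene, at 3.36 and 3.71 FPKM, and the transcriptional coregulator gene Zmiz1 at 15.8 and 15.4 FPKM. On the far side Slmap, which encodes a tail-anchored membrane protein, was at 22.2 and 22.8 FPKM, Dennd6a at 5.64 and 6.19 FPKM, the ADP-ribosylation factor gene Arf4 at 72.1 and 73.1 FPKM, Pde12 at 4.17 and 4.63 FPKM and 9930004E17Rik at 1.13 and 1.40 FPKM.

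**Figure D5:**
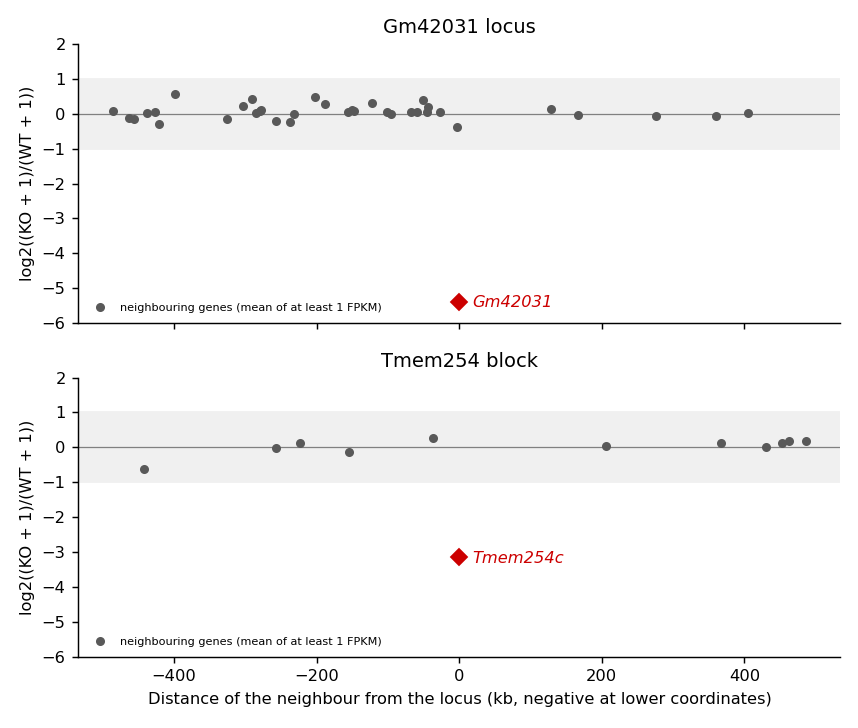
Log2 ratio of KO over WT, with 1 FPKM added to each level, of genes averaging at least 1 FPKM within 500 kb of Gm42031 (upper panel) and of the Tmem254 copies (lower panel), by their distance in kb; the diamond is the member and the grey band spans less than a 2-fold difference. All 36 and 11 neighbours lie inside the band, whereas Gm42031 is at −5.38 and Tmem254c at −3.15.

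Between the Tmem254 copies the rest of the block was close to silent in both libraries. Of 11 other genes there, 8 had 0 fragments in both libraries, among them Cphx1, Cphx2, Cphx3, Duxbl2 and Plac9b; Duxbl3, just beyond Tmem254b, was also at 0. Duxbl1 had 6 and 1 fragments, Gm2260 had 1 and 7, and Gm9780 had 7 and 15. Plac9a, just before Tmem254a, had 8 fragments in the WT-labelled library and 0 in the KO-labelled library, at least 2.69-fold lower against the level of 3 fragments, with a counting interval that begins at 1.72-fold. Plac9a, Plac9b and Gm9780 share most of their sequence, as 77.0% of the 50-base runs of Plac9a were also in Gm9780. Their sum was 15 fragments in each library, so the near-absence of Tmem254c was not seen in the sum of this other repeated gene, at a depth that shows only large differences.

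The targeted gene and the tissue markers were read in the same libraries. Trappc9 was at 9.94 FPKM in the WT-labelled library and 12.6 FPKM in the KO-labelled library (1117 and 1432 fragments), so the value over the whole gene was not lower under the KO label, and it does not show whether an exon was removed. Of 5 adipocyte markers, 4 and 3 reached 1 FPKM (summed level 30.7 and 30.2 FPKM), with the leptin gene Lep at 0.063 and 0.083 FPKM, whereas 5 of 5 adipose progenitor markers did (133 and 96.1 FPKM). All 5 markers of epididymal epithelium were far higher (15531 and 20214 FPKM), all 5 spermatid markers were above 1 FPKM (24.6 and 147 FPKM), and 3 of 5 leukocyte markers were (122 and 176 FPKM). No listed marker was at 0. Fewer cells of a type and less RNA per cell cannot be told apart in such bulk libraries. Of the adipose progenitor markers, 4 of 5 were lower in the KO-labelled library, whereas Dpp4 was at 18.9 and 21.5 FPKM. All 5 epididymal and all 5 spermatid markers were higher there. Small differences depended on the scaling. The median log2 ratio of all genes was 0.02 as deposited and −0.17 after rescaling to TPM. With the same rescaling Dpp4 went from 0.18 to −0.015 and the epididymal gene Gpx5 from 0.22 to 0.017. The higher leukocyte sum was that of Cd74 (113 and 169 FPKM), with Adgre1 at 6.41 and 5.40, Ptprc at 1.12 and 1.06, Cd79a at 0.78 and 0.48 and Cd3e at 0.17 and 0.22 FPKM. The part of these markers in the results was not tested.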

How the data were processed

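The authors deposited 1 table with 1 FPKM value per gene for each of 2 libraries (WT and KO), with gene length, position and biotype. The input was 1 µg of total RNA, prepared with an Illumina TruSeq kit per the labels' protocols. The submitters' processing notes list HISAT2 2.0.5, mm10 and hg38, with no counting program; the positions in the table are mouse. Multiplied by length, 100% of the nonzero FPKM values were whole steps (tolerance 0.01 steps), so fragments could be recovered: 13705193 (WT) and 14783728 (KO) fragments. Levels were used as deposited. Ratios have exact 95% Clopper-Pearson intervals on the share of fragments, and levels exact Poisson intervals, both for counting error only. No p-value was computed, as each group is 1 library. Fragment recovery and intervals were tested on simulated Poisson counts built with the same step sizes. That checks the code and says nothing of spread beyond counting error. Shared sequence was counted as exact runs in GENCODE M21 transcripts (Biopython 1.88). Python 3.11.15, pandas 2.3.3 and scipy 1.17.1 were used. The members and the gene lists were chosen with earlier results of these data known. Named were the members, the genes overlapping them, the 5 nearest measured genes on each side and any neighbour past 2-fold, a list of genes of the Tmem254 region, the 10 genes with the largest WT over KO and the 5 with the largest KO over WT ratios, and Trappc9. The genes sharing sequence with Gm42031, the genes Gm9780 and Gm2260, and the neighbours beyond the rule were named after their values were seen. The rule also counted 5 genes with neighbouring Tmem numbers, of which 0 reached 2-fold. Alternatives were other pseudocounts, scalings, filters, distances and limits.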

Additional observations from a re-analysis of the deposited data

How the results depend on the processing

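Tmem254a and Tmem254b were too low for a ratio. Gm42031, Tmem254c and the summed Tmem254 copies (nearly all on Tmem254c) were lower in the KO-labelled library under every alternative run. With a pseudocount of 0.1 FPKM their log2 ratios were −6.83, −4.11 and −4.11, and with 5 FPKM −3.54, −1.77 and −1.77. After rescaling to TPM, with 1 TPM added, they were −6.43, −3.94 and −3.94. The FPKM summed to 317616 (WT) and 365402 (KO), so 1 TPM is a smaller addition than 1 FPKM. The ratios in TPM thus differ from those as deposited through the smaller addition as well as the scaling, and the 2 were not separated. The pseudocount moves such ratios by construction, and rescaling to TPM lowered the median of all genes by 0.19 (a shift of −0.19), which turns the small positive medians of the neighbours negative. With 1 FPKM added, neighbours past 2-fold numbered 2 without a filter (Gm23388 with 0 and 1 fragments and Gm24031 with 0 and 2), and 1 within 1000 kb (Mir27a, 0 and 3 fragments). The added 1 FPKM hides larger plain ratios at low levels. Mylk3 had 11 and 1 fragments, 11.1-fold higher in the WT-labelled library (1.61 to 478), and Gm26772 22 and 7, 3.17-fold (1.31 to 8.80). A230103J11Rik had 9 and 30, 3.30-fold higher in the KO-labelled library (1.53 to 7.90), and 4933413J09Rik 8 and 21, 2.60-fold (1.11 to 6.79). With the filter, neighbours past 2-fold numbered 1 with a pseudocount of 0.1 FPKM and 1 after rescaling to TPM with 1 TPM added (both Gm47921, 7 and 3 fragments). Genes nearly absent from the KO-labelled library numbered 2 with at least 100 fragments and 8 at a 5-fold limit; from the WT-labelled library, 19 with at least 20 fragments and 36 at 5-fold. Genes at least 2-fold higher and lower in the KO-labelled library, 277 and 156 as deposited, numbered 457 and 331 with a pseudocount of 0.1 FPKM, 84 and 15 with 5 FPKM, and 412 and 275 without a filter. After rescaling to TPM with 1 TPM added they numbered 301 and 411, which mixes the scaling with the smaller addition. Of the 11 genes sharing sequence with Gm42031, 9 were lower and 1 higher beyond the counting interval after rescaling to TPM, an alternative chosen after seeing the data. No paired analysis was possible because each group is 1 library. The 2 libraries limit every statement to these libraries.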
